A study of Mus musculus with 13 samples.

Results

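The inhibitory receptors of T cells and the nuclear factor Tox were followed as 10 genes of the 55774 entries in the gene table. The members were taken by symbol: Pdcd1, Ctla4, Havcr2, Lag3, Tigit, Btla, Cd160, Cd200, Lilrb4a and Tox, each of which matched 1 entry. RNA came from CD4+ T cells of female BDC2.5 mice (strain NOD/ShiLtJ, substrain DoiJ). Their transgene Tg(TcraBDC2.5,TcrbBDC2.5)1Doi encodes a T cell receptor for a beta-cell antigen and is carried by all 13 libraries, so no group has a normal receptor repertoire. In 4 libraries the splenic naive T cells were untreated and had no macrophages (cells alone). In 4 libraries they had been kept for 96 hours with macrophages from islets of NOD mice given control buffer, and in 5 libraries with macrophages from islets of NOD mice given streptozotocin (STZ), a toxin that enters and kills beta cells. The macrophage donors received buffer or a single low dose of STZ at 4 weeks of age, and their islets were taken 10 days later at 5.5 weeks, with the macrophages enriched on magnetic beads. T cells were sorted afterwards as live CD45+Thy1.2+CD4+ cells. The labels leave unsaid whether cells alone spent time in culture, so any contrast with them takes in culture time and macrophages at once. They call the replicates biological without naming cultures or animals, so p-values measure only the spread between these libraries.

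Inhibitory receptors dampen signals from the T cell receptor and from CD28 when they meet their ligands on presenting cells. PD-1 (Pdcd1), CTLA-4 (Ctla4) and BTLA (Btla) belong to the CD28 family. TIM-3 (Havcr2), LAG-3 (Lag3) and TIGIT (Tigit) are further checkpoint receptors, and several of these genes are switched on both by acute activation and by long exposure to antigen. TOX is a DNA-binding factor known for thymic CD4+ T cell development and for the exhausted state of T cells, in which several inhibitory receptors are expressed together. In NOD mice, PD-1 and its ligand restrain T cells that attack beta cells.

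Of the members, 7 had a start-site sequence in the RefSeq table of GRCm38.p6. That table follows the C57BL/6J reference, not the NOD genome of these cells. The 4 printed here, each the 250 bases before the start, belong to receptors or ligands that were higher in both co-cultures than in cells alone. Capitals mark the core motif of NFAT, a factor activated by T cell receptor signals, which was searched as GGAAA on both strands and so appears here as TTTCC.
Pdcd1: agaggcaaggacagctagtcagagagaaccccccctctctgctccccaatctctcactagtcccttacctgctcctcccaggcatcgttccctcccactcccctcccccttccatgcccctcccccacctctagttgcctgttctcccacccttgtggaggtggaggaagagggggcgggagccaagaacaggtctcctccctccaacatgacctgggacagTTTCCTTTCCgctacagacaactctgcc
Ctla4: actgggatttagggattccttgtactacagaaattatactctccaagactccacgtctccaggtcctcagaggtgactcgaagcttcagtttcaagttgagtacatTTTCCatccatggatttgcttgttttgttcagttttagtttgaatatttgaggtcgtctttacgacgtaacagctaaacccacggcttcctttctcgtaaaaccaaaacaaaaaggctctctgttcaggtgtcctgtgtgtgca
Havcr2: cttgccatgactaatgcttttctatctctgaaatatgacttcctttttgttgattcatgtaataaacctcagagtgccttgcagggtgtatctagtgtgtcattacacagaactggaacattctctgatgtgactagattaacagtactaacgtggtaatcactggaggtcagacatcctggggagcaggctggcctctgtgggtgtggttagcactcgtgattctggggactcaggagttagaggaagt
Cd200: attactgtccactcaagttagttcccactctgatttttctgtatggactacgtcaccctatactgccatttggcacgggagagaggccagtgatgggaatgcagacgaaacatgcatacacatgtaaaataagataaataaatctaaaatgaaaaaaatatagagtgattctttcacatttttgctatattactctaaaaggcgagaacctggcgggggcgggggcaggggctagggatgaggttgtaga

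The Pdcd1 sequence lies at chr1:94052554-94052803 on the minus strand and holds 2 NFAT cores next to each other. The Ctla4 sequence lies at chr1:60908775-60909024 on the plus strand and holds 1 core. The Havcr2 sequence (chr11:46454681-46454930, plus strand) and the Cd200 sequence (chr16:45409054-45409303, minus strand) hold 0. Of all 32851 promoter windows of this length, 55.57% hold at least 1 core. The AP-1 word TGACTCA, searched on both strands, occurs in 4.463% of windows and in 0 of those of the members. These are letter matches in a reference sequence and say nothing of binding.

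Both co-cultures differed from cells alone in most of these genes. Of the 9 members with enough counts to test, 7 rose and 1 fell with control macrophages, and 6 rose and 1 fell with STZ macrophages. The 7 were Pdcd1, Ctla4, Havcr2, Btla, Cd160, Cd200 and Lilrb4a, and the 6 were the same genes without Btla. Tox was the member that fell in both. Between the STZ-macrophage and control-macrophage co-cultures, 0 of 9 members passed the test.

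A member was called at a Benjamini-Hochberg adjusted p below 0.05 in edgeR's quasi-likelihood test, fitted to all 13 libraries with collection day as a term and adjusted over 15781 genes. Control macrophages against cells alone called 45% of all genes tested (23.1% higher, 22% lower), and STZ macrophages against cells alone 43.1% (20.8% higher, 22.3% lower). STZ against control macrophages called 0.323% of genes, or 51 (0.152% higher, 0.171% lower). The split of these calls moved with the scaling: 47.1% of them were higher with STZ macrophages, but 68.2% with RLE scaling and 66.7% with library totals alone. For control macrophages against cells alone 51.2% were higher, and 38.6% with library totals alone. The median log2 fold change of the tested members was 3.88 for control macrophages and 3.18 for STZ macrophages against cells alone, beside -0.13 and -0.05 over all genes. With Lilrb4a placed at its lower bound and Lag3 included at its own, these medians were 3.22 and 3.07. For STZ against control macrophages the median was -0.14 for the members and -0.13 for all genes. The contrasts against cells alone share their reference libraries.

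**Figure D1:**
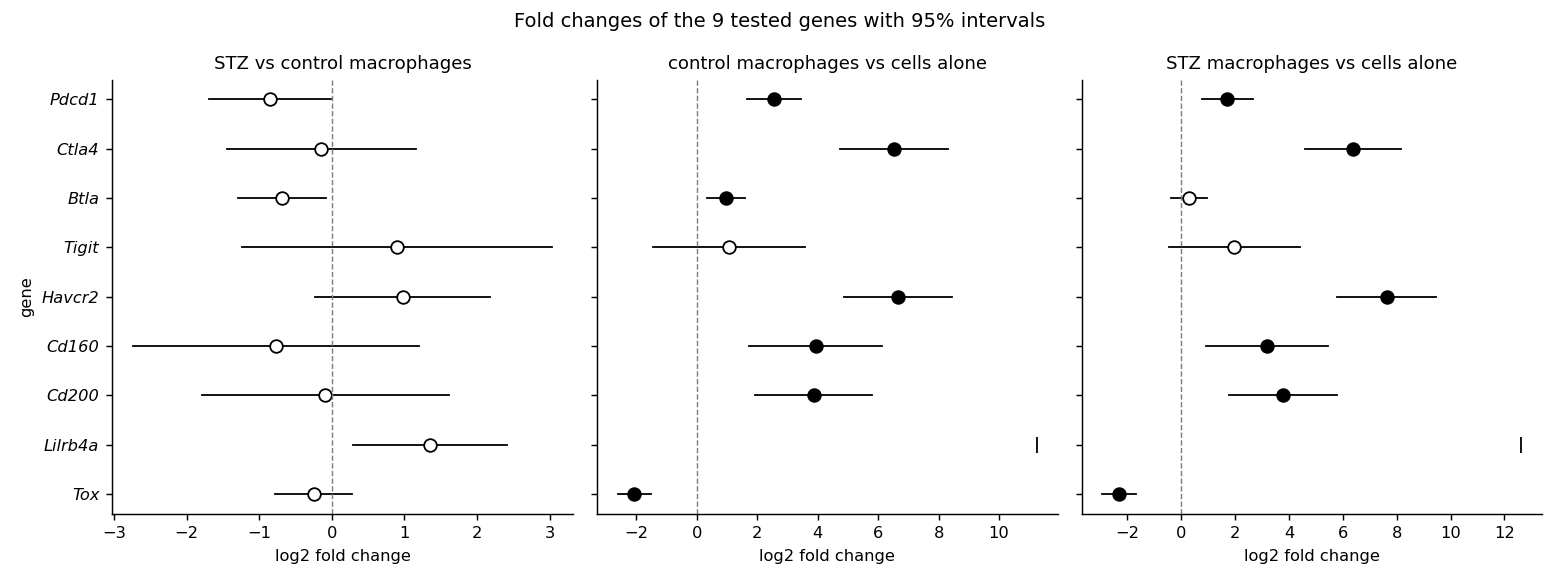
Log2 fold change (x axis) of the 9 tested genes (y axis) in the 3 comparisons, from the edgeR fit to all 13 libraries. Points are estimates and bars 95% intervals, filled points have an adjusted p below 0.05, and the vertical tick of Lilrb4a marks a lower bound because cells alone had no count. Against cells alone most points lie right of 0 and Tox lies left of it, while no point is filled for STZ against control macrophages.

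Library totals were 17.3 to 39.8 M estimated counts in cells alone, 30.6 to 61.3 M with control macrophages and 33.4 to 58.8 M with STZ macrophages. The labels name 2 collection days as batches. Day 1 comprises all cells alone, control-macrophage replicates 1, 2 and 4 and STZ-macrophage replicates 1 and 5, and day 2 comprises control-macrophage replicate 3 and STZ-macrophage replicates 2, 3 and 4. Control-macrophage replicate 3, the only control library of day 2, had the lowest TMM scaling factor, 0.745 against 0.893 to 1.30 elsewhere, and stands apart for several members below. T cell identity genes (12, among them Cd3e, Cd4 and Thy1) were detected throughout, with a summed level of 6103 to 10463 CPM (counts scaled to library size) in cells alone, 8787 to 13504 with control macrophages and 6979 to 8908 with STZ macrophages. Between the co-cultures 10 of these 12 genes were negative for STZ minus control macrophages (median log2 fold change -0.45), 8 had an unadjusted p below 0.05 and 0 were called. Macrophage transcripts were present as well: 25 marker genes summed to 3.26 to 23.3 CPM in cells alone, 11.2 to 79.2 with control macrophages and 37.7 to 160 with STZ macrophages. The complement receptor gene Vsig4 had no count in any library, and Spi1 and Mertk had none with control macrophages. Of 20 tested macrophage markers, 18 were positive in STZ minus control macrophages, 4 had an unadjusted p below 0.05 and 0 were called. Over all genes tested, 22.8% had an unadjusted edgeR p below 0.05 in this comparison. In STZ-macrophage replicates 2 and 4, islet endocrine transcripts were found as well (161 and 118 CPM over 9 markers, no more than 3.33 CPM elsewhere). The part of macrophage and islet RNA in the results below was not tested.

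Among the CD28 family, Pdcd1 encodes PD-1, which recruits the phosphatase SHP-2 to the receptor complex. Pdcd1 stood at 3.56, 1.78, 9.28 and 3.98 CPM in cells-alone replicates 1 to 4. Control-macrophage replicates 1 to 4 had 30.0, 29.5, 57.3 and 25.1 CPM, and STZ-macrophage replicates 1 to 5 had 15.8, 34.6, 38.1, 29.3 and 14.0 CPM. Every co-culture library lay above every library of cells alone, and the co-cultures overlapped each other. The log2 fold change was 2.57 (SE 0.41, edgeR adjusted p = 2.9e-04) with control macrophages and 1.72 (SE 0.43, adjusted p = 0.0064) with STZ macrophages. Without cells-alone replicate 3, the highest of its group, these values were 3.19 and 2.52. For STZ against control macrophages the log2 fold change was -0.85 (SE 0.39, 95% interval -1.69 to -0.01, adjusted p = 0.216). The 2 STZ libraries of day 1 were the lowest of all co-cultures.

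Ctla4 encodes CTLA-4, which competes with CD28 for CD80 and CD86. Cells alone had 0, 1.24, 1.25 and 2.28 CPM of Ctla4, control-macrophage replicates 82.5, 92.8, 168 and 96.1, and STZ-macrophage replicates 122, 71.0, 84.1, 90.2 and 130. No cells-alone library came near the lowest co-culture, and the ranges of the co-cultures overlapped. The rise was 6.52 (SE 0.83, edgeR adjusted p = 5.1e-05) on the log2 scale with control macrophages and 6.37 (SE 0.82, adjusted p = 6.1e-05) with STZ macrophages. STZ against control macrophages gave -0.14 (95% interval -1.45 to 1.16, adjusted p = 0.895), and 0.63 without control-macrophage replicate 3. Its sign also turned under several other settings.

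Btla encodes the receptor for HVEM, the product of Tnfrsf14, and is already expressed by naive T cells. Its level was 48.8, 48.7, 104 and 120 CPM in cells alone. With control macrophages it was 138, 131, 283 and 182 CPM, and with STZ macrophages 110, 150, 137, 152 and 100 CPM. Cells alone fell into a low pair and a high pair, and the high pair reached into the range of the STZ-macrophage libraries but not into that of the control-macrophage libraries. Btla rose by 0.97 (SE 0.30, edgeR adjusted p = 0.0176) on the log2 scale with control macrophages, a call that was lost when libraries were scaled by their totals alone (0.67, adjusted p = 0.0529), when day 1 was fitted alone (0.98, adjusted p = 0.0558) and when only those groups were fitted (0.90, adjusted p = 0.0925). With STZ macrophages it differed by 0.29 (95% interval -0.39 to 0.96, adjusted p = 0.483). That the first passed and the second did not does not show a difference. Set directly against each other, STZ minus control macrophages was -0.68 (SE 0.28, 95% interval -1.29 to -0.08, adjusted p = 0.190).

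Havcr2 encodes TIM-3, a receptor of effector T cells that is also expressed by macrophages. Cells alone had counts in replicate 4 only (0.175 CPM, 6 counts) and none in replicates 1 to 3. With control macrophages Havcr2 was at 3.68, 3.79, 25.2 and 5.31 CPM, and with STZ macrophages at 11.3, 30.6, 32.7, 31.7 and 11.4 CPM. The high values, 25.2 CPM and above, are exactly the 4 libraries of day 2. The log2 fold change against cells alone was 6.65 (SE 0.82, edgeR adjusted p = 4.2e-05) with control and 7.63 (SE 0.85, adjusted p = 1.9e-05) with STZ macrophages. Both rest on the 6 counts of cells-alone replicate 4, without which the reference group had none and the fitted values became 10.51 and 11.49, which are no bounds. STZ against control macrophages gave 0.98 (SE 0.56, 95% interval -0.23 to 2.18, adjusted p = 0.292), and 1.58 (adjusted p = 0.339) without control-macrophage replicate 3.

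Tigit encodes a receptor that binds the poliovirus receptor CD155 and competes with CD226. It was among the lowest members, at 0.276, 0, 0 and 0.292 CPM in cells alone and 0.034, 0.197, 1.36 and 0.395 with control macrophages. STZ-macrophage libraries had 0.906, 1.16, 1.06, 0.678 and 0.748 CPM. The 5 STZ libraries lay above all 4 libraries of cells alone, and the control libraries spanned both. No contrast passed the test: the log2 fold change was 1.07 (95% interval -1.45 to 3.59, edgeR adjusted p = 0.476) with control macrophages, 1.97 (-0.45 to 4.40, adjusted p = 0.174) with STZ macrophages and 0.90 (-1.23 to 3.03, adjusted p = 0.573) between the co-cultures. The last was 2.15 without control-macrophage replicate 3.

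Lag3 encodes a receptor for MHC class II and was the member with too few counts for the model. Cells alone had 0 counts in 4 of 4 libraries. Control-macrophage replicates 1 to 4 had 2, 7, 2 and 0 counts, and STZ-macrophage replicates 1 to 5 had 24, 1, 0, 0 and 9. The counts of the STZ group came almost entirely from its day 1 libraries. In CPM the highest library, STZ-macrophage replicate 1, reached 0.588. Set against a floor of 3 counts over the 4 libraries of cells alone, the pooled level was at least 3.22-fold higher with control and at least 7.75-fold higher with STZ macrophages. These bounds were 1.95-fold without control-macrophage replicate 2 and 2.88-fold without STZ-macrophage replicate 1. Two-sided exact permutation tests on CPM gave p = 0.143 (4 against 4 libraries, smallest possible 0.0286), p = 0.286 (5 against 4, smallest possible 0.0079) and, between the co-cultures, p = 0.516. Adjusted over the 3 tests, these were 0.429, 0.429 and 0.516. No change in Lag3 was called by that test. With the filter on low counts removed, edgeR gave STZ macrophages against cells alone an adjusted p of 0.0252.

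Cd160 encodes a receptor that, like BTLA, binds HVEM. In cells alone it had 0, 0, 1.01 and 1.64 CPM. With control macrophages it had 6.81, 14.6, 23.2 and 11.2 CPM, and with STZ macrophages 4.85, 17.6, 18.2, 13.1 and 6.65 CPM. All co-cultures lay above all cells alone. The gene rose by 3.94 (SE 1.01, edgeR adjusted p = 0.0071) on the log2 scale with control macrophages and by 3.18 (SE 1.05, adjusted p = 0.0266) with STZ macrophages, or by 4.83 and 4.06 without cells-alone replicate 4. The STZ call was the less firm: the adjusted p was 0.0509 with no filter, 0.0863 with only those groups fitted, 0.0845 on day 1 alone and 0.0802 without STZ-macrophage replicate 5. The control call was lost when only its groups were fitted (adjusted p = 0.0501). STZ against control macrophages gave -0.76 (95% interval -2.74 to 1.21, adjusted p = 0.607).

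Cd200 encodes a surface ligand of the inhibitory receptor CD200R1, so it is the one member that sends rather than receives such a signal. Its level was 0, 0.888, 6.06 and 3.39 CPM in cells alone, 47.6, 31.8, 105 and 35.6 with control macrophages and 37.2, 91.3, 102, 96.4 and 35.7 with STZ macrophages. The co-cultures fell into a low set of 31.8 to 47.6 CPM, which is day 1, and a high set of 91.3 to 105 CPM, which is day 2. Against cells alone the log2 fold change was 3.88 (SE 0.89, edgeR adjusted p = 0.0037) with control and 3.79 (SE 0.92, adjusted p = 0.0054) with STZ macrophages. Without cells-alone replicate 3 these were 4.76 and 4.86. Between the co-cultures the estimate was -0.09 (95% interval -1.79 to 1.61, adjusted p = 0.952), and its sign turned under most other settings. Cd200r1, its receptor, was lower with control macrophages than in cells alone (12.7 ± 5.25 against 30.6 ± 12.1 CPM, SD, n = 4 each, edgeR adjusted p = 0.0041).

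Lilrb4a encodes a receptor with inhibitory cytoplasmic motifs that is known on macrophages, dendritic cells and activated T cells. Cells alone had 0 counts in all 4 libraries. Control-macrophage replicates had 23.7, 34.3, 131 and 42.0 CPM and STZ-macrophage replicates 190, 105, 110, 132 and 183 CPM. With a floor of 3 counts over cells alone, the pooled level was at least 2427-fold higher with control macrophages (edgeR adjusted p = 6.6e-06) and at least 6355-fold higher with STZ macrophages (adjusted p = 4.1e-06). Without control-macrophage replicate 3, the control bound was 1506-fold. Between the co-cultures, 3 of 4 control libraries lay below all STZ libraries and the other, replicate 3, lay inside their range. The log2 fold change was 1.35 (SE 0.47, 95% interval 0.29 to 2.41, adjusted p = 0.166), and without control-macrophage replicate 3 it was 2.64 (adjusted p = 0.0106, in a fit that called 0.53% of genes).

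Split by day, the pattern of Lilrb4a was uneven. On day 1 the STZ libraries had 183 and 190 CPM against 23.7 to 42.0 with control macrophages, which is 2.48 on the log2 scale (SE 0.28, edgeR adjusted p = 0.0174, higher in 2 of 2 STZ libraries). Fitted on the day 1 libraries alone, the value was 2.64 and the call was lost (adjusted p = 0.137). In the fit of all 13 libraries, day 1 called 0.215% of all genes (0.171% higher), and Lilrb4a was the only member among them. On day 2 the STZ libraries had 105 to 132 CPM against 131 in the lone control library, whose spread is taken from the other groups, or -0.18 on the log2 scale (SE 0.35, adjusted p = 0.874). The difference between days was -2.66 (SE 0.42) and had an unadjusted p of 1.7e-04 but an adjusted p of 0.234, so it failed the correction. The day difference called 0.00634% of genes, or 1. No control library of day 2 other than replicate 3 was measured, so its library and its day cannot be told apart.

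**Figure D2:**
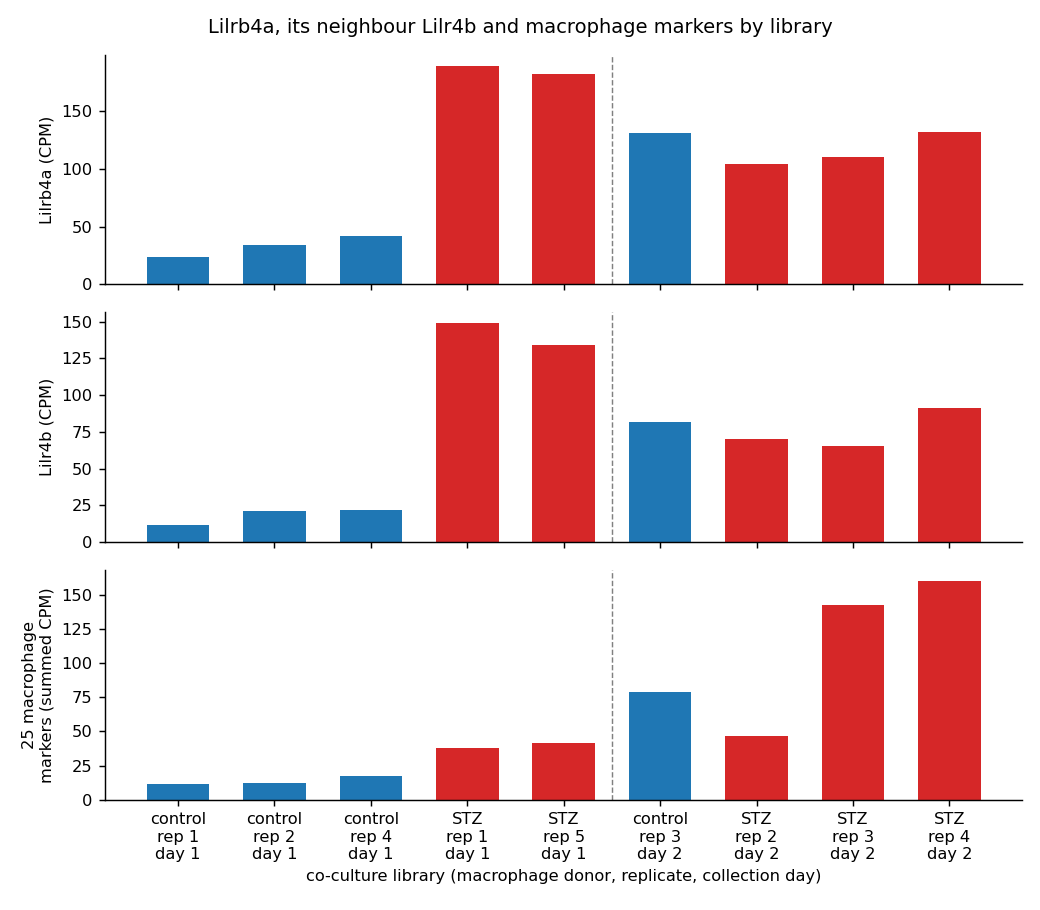
Bars give the TMM-scaled CPM of Lilrb4a (top), of its neighbour Lilr4b (middle) and the summed CPM of 25 macrophage markers (bottom) in the 9 co-cultures, with day 1 left and day 2 right of the dashed line, controls in blue and STZ in red. On day 1 both STZ libraries exceed all 3 control libraries in each panel. On day 2 Lilrb4a of the control library (131 CPM) is within the range of the STZ libraries. The day 2 marker sums (46.4 to 160 CPM) follow the order of Lilrb4a among the STZ libraries, but not with the control library included.

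Lilrb4a and its neighbour Lilr4b moved together. Lilrb4a lies at chr10:51490956-51496611 (GRCm38, plus strand), 4.3 kb from Lilr4b, a close homolog. The pair shares 39.08% of the 31-base words of Lilrb4a but only 3.724% of its words of 150 bases, the read length. Lilr4b, looked at after its values were seen, had 0 counts in cells alone, 11.9, 21.0, 82.1 and 22.0 CPM with control macrophages and 149, 70.5, 65.3, 91.6 and 134 CPM with STZ macrophages. Lilrb4a made up 56.0% to 66.5% of their sum in the 9 co-cultures. The counting could have split reads between these copies, and it could also have lost some to Gm49339, a gene model on the same strand that shares 35.317% of the exon bases of Lilrb4a and stood at 0.945 to 15.3 CPM. The split between the copies is therefore uncertain, while their sum was 338.7 and 317 CPM in the day 1 STZ libraries and 35.6 to 64.0 CPM in the day 1 controls.

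Macrophage markers and Lilrb4a had the same order in the 4 control libraries, where marker sums of 11.2, 12.4, 17.4 and 79.2 CPM went with 23.7, 34.3, 42.0 and 131 CPM of Lilrb4a. On day 1 both measures were higher in the STZ than in the control libraries. Among all 5 STZ libraries the orders differed. The STZ libraries of day 1 had the highest Lilrb4a, 190 and 183 CPM, with marker sums of 37.7 and 41.5 CPM. Within day 2 the orders of the STZ libraries were the same. There STZ-macrophage replicates 2, 3 and 4 had 105, 110 and 132 CPM with marker sums of 46.4, 143 and 160. Lyz2, the lysozyme gene of macrophages, was at 1.20 to 24.9 CPM with control and 7.25 to 45.6 CPM with STZ macrophages. The receptor gene Csf1r was at 0.0824 to 0.770 and 1.13 to 5.67 CPM. The part of macrophage RNA in the level of Lilrb4a was not tested. In bulk RNA, fewer cells of a type and less RNA per cell cannot be told apart.

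Tox was the member that fell. It was at 69.1, 46.2, 80.0 and 84.6 CPM in cells alone. With control macrophages it was at 19.4, 17.5, 18.9 and 14.6 CPM, and with STZ macrophages at 11.0, 20.7, 17.5, 15.2 and 16.0 CPM. The lowest library of cells alone was above the highest co-culture, and the co-cultures overlapped. The log2 fold change was -2.06 (SE 0.25, edgeR adjusted p = 3.7e-05) with control and -2.31 (SE 0.28, adjusted p = 4.0e-05) with STZ macrophages. STZ against control macrophages gave -0.25 (95% interval -0.78 to 0.28, adjusted p = 0.529). Its level was 17.6 ± 2.17 CPM with control macrophages (SD, n = 4) and 16.1 ± 3.52 with STZ macrophages (n = 5), and control-macrophage replicate 3 (18.9 CPM) did not stand apart for it.

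**Figure D3:**
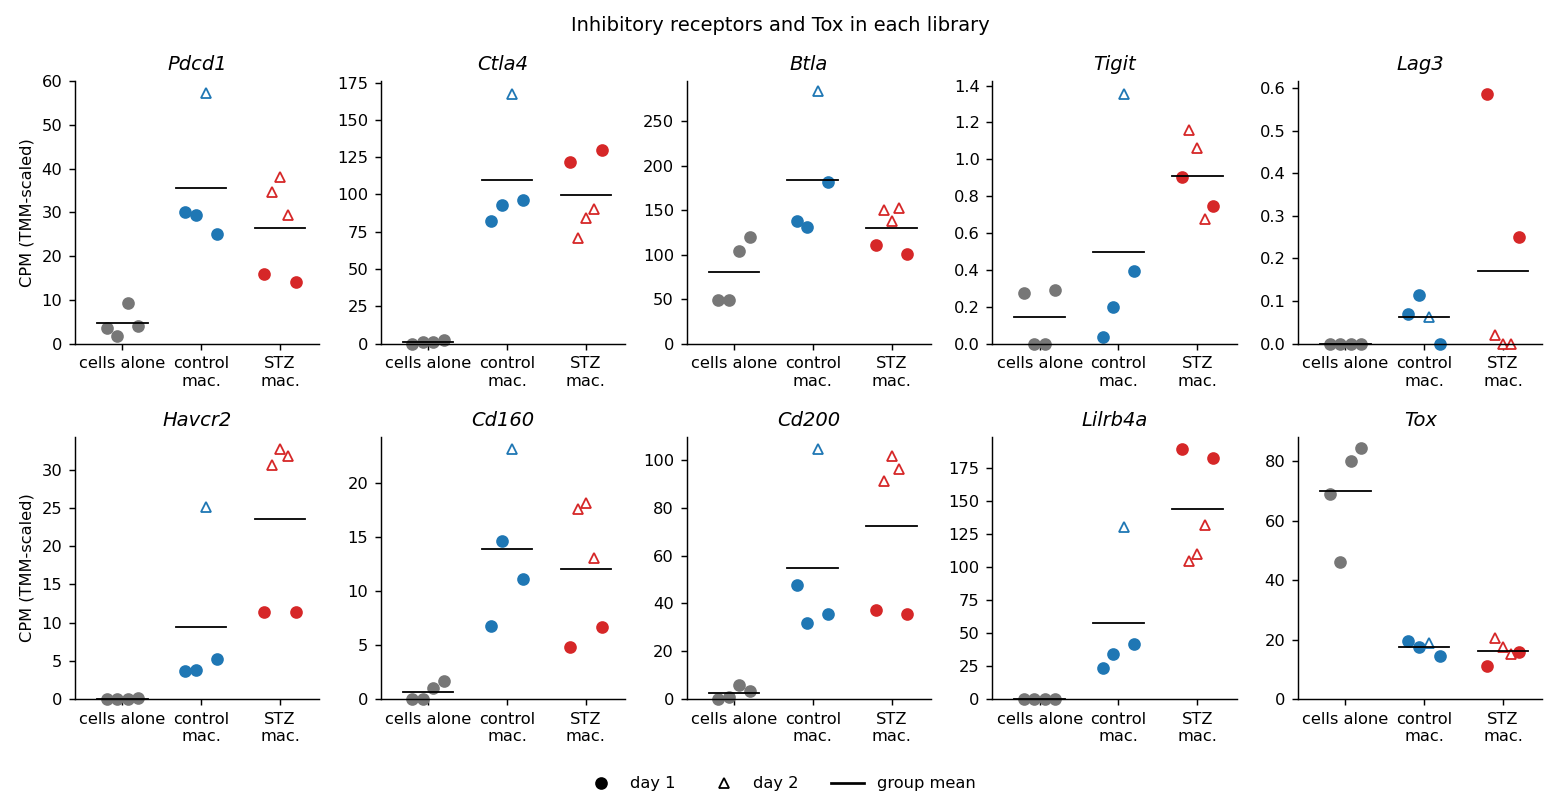
TMM-scaled CPM (y axis, linear, a separate scale for each gene) of the 10 genes in each library by group (x axis), with filled circles for day 1, open triangles for day 2 and a line at the group mean. Cells alone lie at or near 0 for most receptors and highest for Tox, and the open triangles of Havcr2 (25.2 to 32.7 CPM) and Cd200 (91.3 to 105 CPM) lie above all filled circles.

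Groups that did not overlap were frequent against cells alone. Between control macrophages and cells alone, 8 of 10 members did not overlap, beside 39.8% of all genes. Between STZ macrophages and cells alone there were also 8, now with Tigit and without Btla, beside 39.6%. Between the co-cultures 0 members were free of overlap, beside 7.53% of genes.

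The comparison of the co-cultures depended on which libraries were fitted. Of the 9 tested members, 3 had an unadjusted p below 0.05 (Pdcd1, Btla and Lilrb4a), beside 22.8% of all genes. When only the 9 co-cultures were fitted, 4 members passed: Lilrb4a (log2 fold change 1.55, edgeR adjusted p = 0.0469) and Havcr2 (1.17, adjusted p = 0.0146) were higher with STZ macrophages, and Pdcd1 (-0.67, adjusted p = 0.0241) and Btla (-0.49, adjusted p = 0.0372) were lower. That fit called 18.1% of all genes (10.1% higher, 8.06% lower). The T cell identity genes were also lower with STZ macrophages in most cases, as given above, and their part in the lower values of Pdcd1 and Btla was not tested. DESeq2 called 1 member, Havcr2 (adjusted p = 0.0496), and 4.19% of genes, and limma on the authors' adjusted log2 table called 1, Lilrb4a (1.64, adjusted p = 0.0445), and 3.9% of genes.

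Within each day the STZ libraries were also set against the control libraries. On both days all STZ libraries lay below all control libraries for Pdcd1, Btla and Cd160, beside 24.5% of all genes, and above them for Havcr2, beside 12.6%. For Pdcd1 the day 1 values were 14.0 and 15.8 CPM against 25.1 to 30.0, and those of day 2 were 29.3 to 38.1 against 57.3. For Btla they were 100.3 and 110 CPM against 131 to 182 on day 1 and 137 to 152 against 283 on day 2. For Havcr2 they were 11.3 and 11.4 CPM against 3.68 to 5.31 and 30.6 to 32.7 against 25.2. For Cd160 they were 4.85 and 6.65 CPM against 6.81 to 14.6 on day 1 and 13.1 to 18.2 against 23.2 on day 2. Scaled by library totals alone, Cd160 in STZ-macrophage replicate 5 (6.85 CPM) lay above control-macrophage replicate 1 (6.47 CPM). Its day 1 separation was thus lost with that scaling. For Ctla4, Tigit and Lag3 the STZ libraries lay above the control libraries on day 1 and below the 1 control library on day 2. The share of all genes with this pattern was not counted, so it is not shown to be particular to these members. For Lag3, day 2 rests on 2 counts in control-macrophage replicate 3 against 1, 0 and 0 in the STZ libraries. With library totals alone, Tigit in STZ-macrophage replicate 2 (1.04 CPM) lay above control-macrophage replicate 3 (1.01 CPM). The difference between days was not called for any of the 9 tested members; for Ctla4 it was -1.51 (adjusted p = 0.867) and for Tigit -2.45 (adjusted p = 0.869).

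Collection day itself moved with some members among the 9 co-cultures, a contrast examined after these values were seen. Havcr2 was higher on day 2 by 1.91 (SE 0.55, edgeR adjusted p = 0.0614, unadjusted p = 0.0043) on the log2 scale, Cd200 by 1.42 (SE 0.79, adjusted p = 0.249) and Pdcd1 by 1.12 (SE 0.39, adjusted p = 0.0903). None of the 9 passed, beside 3.15% of all genes called, 3 of 9 had an unadjusted p below 0.05, beside 28.9%, and 8 of 9 estimates were positive. Havcr2 and Cd200 were the members whose days did not overlap, beside 10.4% of all genes. Day 2 has 3 STZ libraries and 1 control library, so the group means of these genes mix day with treatment, and the day term of the model carries that imbalance.

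Levels were compared between genes as CPM per kilobase of exon, with exon lengths from GENCODE vM21. In cells alone the order was led by Btla (23.7 CPM per kb) and Tox (9.2), followed by Pdcd1 (2.41), with every other member below 1. With control macrophages the order was Btla (54.0), Ctla4 (47.1), Pdcd1 (18.4), Cd200 (16.5), Lilrb4a (11.0), Cd160 (5.28), Havcr2 (3.49), Tox (2.32), Tigit (0.540) and Lag3 (0.029). With STZ macrophages Ctla4 (42.7) and Btla (38.3) led, and Lilrb4a (27.5), Cd200 (21.8), Pdcd1 (13.7), Havcr2 (8.66), Cd160 (4.57), Tox (2.11), Tigit (0.991) and Lag3 (0.081) followed. Neighbours in these orders overlapped between libraries, except Btla and Tox and then Tox and Pdcd1 in cells alone, Ctla4 and Pdcd1 with control macrophages, Tox and Tigit in both co-cultures and Tigit and Lag3 with STZ macrophages. Tox passed from the second place in cells alone to the eighth in both co-cultures.

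**Figure D4:**
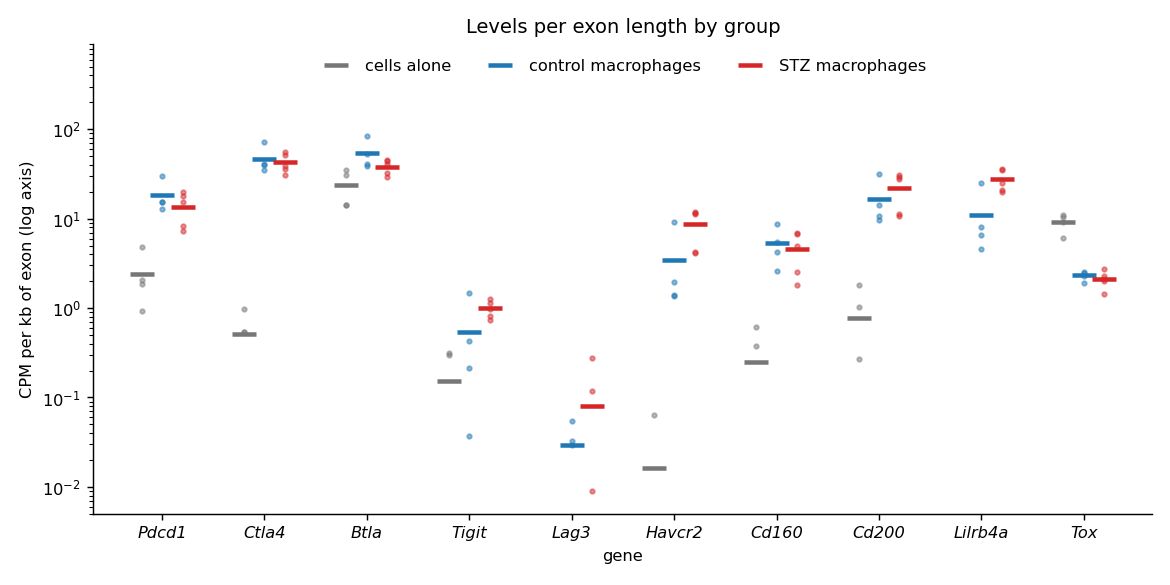
CPM per kilobase of exon (y axis, log scale) of the 10 genes (x axis) in cells alone (grey), with control macrophages (blue) and with STZ macrophages (red). Points are libraries and bars group means, and libraries at 0 cannot be drawn on this axis. Btla and Ctla4 lead both co-cultures, and Tox is the gene whose grey bar (9.2) lies above its blue (2.32) and red (2.11) bars.

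Ligands and partners of these receptors were measured in the same T cell libraries. Of 16 listed genes, 12 were tested, of which 7 rose and 1 fell with control macrophages against cells alone, with a median log2 fold change of 1.04. With STZ macrophages 5 rose and 2 fell (median 0.36). For this and the lists below, the shares called over all genes were 45% with control and 43.1% with STZ macrophages against cells alone. Between the co-cultures 0.323% of all genes were called and 22.8% had an unadjusted edgeR p below 0.05. Lgals3, which encodes galectin-3, went from 0.145 ± 0.168 CPM in cells alone to 54.9 ± 8.00 with control macrophages (SD, n = 4 each). The PD-1 ligand gene Pdcd1lg2 went from 0.0439 ± 0.0877 to 5.17 ± 4.11 CPM and the CTLA-4 ligand genes Cd80 and Cd86 to 10.0 ± 2.26 and 16.7 ± 7.85 CPM. Between the co-cultures 0 of 12 were called (median -0.31), 4 had an unadjusted p below 0.05, and 4 were positive. The smallest p belonged to Tnfrsf14, the gene of HVEM, the ligand of both BTLA and CD160, at 19.8 ± 2.35 CPM (n = 5) with STZ and 42.4 ± 3.92 (n = 4) with control macrophages (-1.07 on the log2 scale with SE 0.24, edgeR adjusted p = 0.0804). Lgals9, whose product galectin-9 binds TIM-3, followed at 425 ± 95.9 against 790.3 ± 241 CPM (-1.10, SE 0.26, adjusted p = 0.100). Macrophages express several of these genes as well, and the part of macrophage RNA was not tested.

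Costimulatory receptors, the counterparts of the inhibitory ones, moved in both directions. Of 10 tested, 7 rose and 1 fell with control macrophages (median 2.07), and 7 rose and 3 fell with STZ macrophages (median 1.46). Over all genes, 45% and 43.1% were called in these comparisons. Tnfrsf9, which encodes 4-1BB, was at 0.598 ± 0.405 CPM in cells alone and at 476 ± 362 with control macrophages, or 9.06 on the log2 scale (SE 0.67, edgeR adjusted p = 7.3e-07). Tnfrsf4, which encodes OX40, went from 3.29 ± 1.94 to 280 ± 112 CPM, and Icos from 55.1 ± 20.2 to 483 ± 219. Between the co-cultures 0 of 10 passed (median -0.51), 6 had an unadjusted p below 0.05, and 8 were negative. Cd27 had the smallest p, at 113 ± 12.2 CPM with STZ and 250 ± 31.7 with control macrophages (-1.11, SE 0.22, adjusted p = 0.0565). Cd226, the activating partner of TIGIT, was at 84.6 ± 21.4 against 154 ± 65.5 CPM (-1.10, adjusted p = 0.112). As with the lower receptors, the part of the T cell identity genes, which had a median of -0.45, was not tested.

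Among other inhibitory surface molecules, 12 of 13 listed genes were tested, and 1 of them fell with STZ against control macrophages (median log2 fold change of the 12, -0.06): Pecam1, the adhesion receptor CD31 with inhibitory motifs, at 77.8 ± 10.4 CPM (n = 5) against 243 ± 44.7 (n = 4), or -1.63 on the log2 scale (SE 0.29; edgeR adjusted p = 0.0437). The call was lost in 10 of 13 fits that left out 1 library (adjusted p up to 0.216, without control-macrophage replicate 4), with RLE scaling (0.0655), on day 1 alone (0.318) and without the STZ-macrophage libraries with islet transcripts (0.383), and the value stayed negative in each. Cd101 was at 4.30 ± 0.507 against 8.88 ± 0.912 CPM (-1.09, SE 0.22, adjusted p = 0.0556). Against cells alone, 3 rose and 2 fell with control macrophages (median 0.52) and 3 rose and 3 fell with STZ macrophages (median 0.67). Over all genes, 45% and 43.1% were called in these comparisons. Entpd1, the ectoenzyme CD39, rose from 1.91 ± 0.525 to 47.2 ± 23.5 CPM with control macrophages. Cd101 fell from 70.2 ± 13.9 to 8.88 CPM, and Vsir, the gene of VISTA, from 345 ± 131 to 97.0 ± 45.6.

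All 13 genes listed as carriers of inhibitory signals inside the cell were tested. With control macrophages 3 rose and 2 fell (median 0.45), and with STZ macrophages 2 rose and 2 fell (median 0.32). These were no larger shares than the 45% and 43.1% called over all genes. Between the co-cultures 0 passed and 3 had an unadjusted edgeR p below 0.05, beside 22.8% of all genes (median of the list -0.16). Dok2, an adaptor that restrains receptor signalling, rose by 2.02 (SE 0.18, edgeR adjusted p = 2.6e-06) on the log2 scale with control macrophages. Ubash3b, a phosphatase gene, fell by 3.23 (SE 0.29, adjusted p = 2.7e-06), and Pag1, an adaptor of the kinase CSK, fell by 2.16 (SE 0.34, adjusted p = 2.4e-04). Ptpn6, which encodes SHP-1, rose by 0.62 (SE 0.18, adjusted p = 0.0143), a call lost under 3 of the other settings (adjusted p up to 0.0871). Ptpn2 rose by 0.51 with control (edgeR adjusted p = 0.0382) and 0.68 with STZ macrophages (adjusted p = 0.0162). Its control call was lost under 14 other settings (adjusted p up to 0.331, with library totals alone). Its STZ call was lost under 4 (up to 0.818, by limma on the authors' log2 table).

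Of 19 genes listed as the family of Tox and factors known to act with it, 16 were tested. Against cells alone 8 rose and 3 fell with control macrophages (median 2.12) and 9 rose and 3 fell with STZ macrophages (median 2.24). The shares called over all genes were 45% and 43.1%. Between the co-cultures their median was 0.13. Tox3 had no count in cells alone or with control macrophages, and the widely expressed Tox4 was at 251 ± 49.1 CPM in cells alone and 311 ± 65.8 with control macrophages (log2 fold change 0.16, adjusted p = 0.457). Bhlhe40 rose from 2.60 ± 2.09 to 229 ± 84.7 CPM with control macrophages, and Irf4, induced by T cell receptor signals, from 0.892 ± 0.644 to 63.5 ± 19.5. Tcf7, a factor of naive and memory T cells, fell from 1278 ± 257 to 231 ± 66.1 CPM. Between the co-cultures 1 of 16 was called: Tcf7 was lower with STZ macrophages, at 81.5 ± 14.2 CPM (-1.32 on the log2 scale with SE 0.20, edgeR adjusted p = 0.0199). This call was lost in 9 of 13 fits that left out 1 library (adjusted p up to 0.157, without control-macrophage replicate 4), and on day 1 alone (0.241) and without the STZ-macrophage libraries with islet transcripts (0.348); the value stayed negative in each. Bhlhe40 was at 519 ± 61.0 against 229 CPM (1.04, SE 0.40, adjusted p = 0.179).

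Markers of regulatory T cells, which are known to express CTLA-4 and TIGIT, were higher in co-culture as well. Of 8 such markers, 8 rose in each co-culture, beside 23.1% and 20.8% of all genes with control and STZ macrophages. The 8 markers summed to 94.4 to 179 CPM in cells alone, 1793 to 4381 with control macrophages and 1908 to 3215 with STZ macrophages. Most of this sum was Il2ra, which activated T cells express too, at 1183 to 3313 CPM with control macrophages and at 0 in cells alone. Foxp3, the defining factor, was at 0.502 to 1.98 CPM in cells alone, 14.9 to 107 with control macrophages and 5.28 to 20.2 with STZ macrophages. Markers of CD8 T cells and NK cells, which also express Cd160 and Tigit, summed to 69.9 to 152, 42.6 to 106 and 57.4 to 83.2 CPM in the 3 groups. The largest part was Klrd1, with means of 86.2, 26.8 and 40.2 CPM, while Cd8a (0.155, 5.34 and 3.51) and Eomes (0.245, 7.37 and 9.44) went the other way. Of 7 tested, 2 rose and 1 fell with control macrophages and 1 rose and 4 fell with STZ macrophages. Over all genes, 45% and 43.1% were called. The part of these cells in the members' levels was not tested.

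The genes whose levels ran closest to each member were found among 7404 tested genes by the root mean square (RMS) difference of centred log2 CPM over the 13 libraries. Btla and Tox had the closest neighbours: Senp8 for Btla (RMS 0.125) and Cdip1 for Tox (0.145). Pdcd1 came next with Apoo-ps (0.294), Tuba1c (0.304) and Tipin (0.326). Ctla4 was nearest to Spc25 (0.493), Mtfr2 (0.531) and Irf4 (0.539), and Cd200 to the chemokine receptor gene Ccr4 (0.455), Tnfsf4 (0.516) and Traip (0.612). Havcr2 was nearest to Tnfrsf4 (0.930), Bhlhe40 (1.03) and Tg (1.09), and Lilrb4a to Bcat1 (0.888), Tgm2 (0.898) and Lif (0.900). Tigit was nearest to Gimap7 (0.878) and Cd160 to Nedd4 (0.827), both at larger distances, as for Havcr2 and Lilrb4a. Between members the closest were Pdcd1 and Btla (0.954) and Cd160 and Cd200 (0.999). Btla and Tox also spanned the smallest log2 ranges, 2.54 and 2.93, against 4.71 to 11.8 for the other tested members. Distances tend to be larger for genes that vary more, so they do not rank the members by closeness alone. The points share the step from cells alone to co-culture, so the distances describe these libraries only.

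Of the 10 genes, 3 lie on chromosome 16 of GRCm38. Btla (chr16:45224315-45257670, plus strand) and Cd200 (chr16:45382135-45409053, minus strand) are 124.5 kb apart, and Tigit (chr16:43648867-43664146, minus strand) is 1560.2 kb from Btla. In the 9 co-cultures Btla, Cd200 and Tigit each had their highest value in control-macrophage replicate 3, as did Pdcd1, Ctla4 and Cd160. With library totals alone this held only for Btla, Pdcd1 and Cd160. Cd200 was then higher in STZ-macrophage replicate 3 (94.1 against 77.9 CPM) and Tigit in STZ-macrophage replicate 2 (1.04 against 1.01 CPM). Ctla4 was higher in STZ-macrophage replicate 5 (134 against 125 CPM). The days did not overlap for Cd200 but did for Btla and Tigit. Small parts of the exons of Cd160 (2.574%) and Tox (3.417%) overlap genes on the other strand, Pdzk1 and Gm11802, and the library kit does not keep the strand. Those genes were at no more than 0.273 and 0.646 CPM in any library, below the levels of Cd160 in co-culture and of Tox in every library.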

How the data were processed

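Bulk RNA libraries of sorted CD4+ T cells were read from paired-end reads of 150 bases aligned to GRCm38, per the labels' protocols; the kit, a template-switching one, does not mark strand, and the counting program and annotation release are not stated. DESeq2 is named in the submitters' processing notes. The authors deposited estimated counts per gene without normalization (11.0% of values not whole, rounded here). They also deposited a second table of adjusted log2 values, with sva in its name, whose adjustment is not described further. Limma was fitted to these adjusted values with group terms only, so its p-values make no allowance for that adjustment.

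Tests used edgeR 4.0.16 (R 4.3.3): filterByExpr by group left 15781 genes, libraries were scaled by TMM, and robust quasi-likelihood F tests used 1 term per group and 1 for day over all 13 libraries, with Benjamini-Hochberg adjustment. CPM is the count over the library total times its TMM factor, log2 CPM used a prior count of 2, intervals (95%) use the t quantile, and floors are 3 counts over a group and cover counting error only. There are no molecular identifiers. Within-day effects came from 1 mean per group and day. Scripts were tested on simulated data.

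The members and the lists were chosen with earlier results of these data known. Named genes were the 10 members, up to 5 called genes of each pathway list and comparison (or the 3 with the smallest p), and the 3 nearest genes of each member; Cd200r1, Tox3, Tox4, Lilr4b and the marker genes were added with their values known. Alternatives were RLE scaling, library totals alone, no filter, DESeq2 1.42.0, no day term, fitting only the groups compared, only day 1, a replicate block, limma 3.58.1 on the authors' log2 table, and leaving out libraries. Library replicates correlated at 0.869 to 0.981 and none were identical. Deviations from the group means correlated at 0.161 to 0.352 between cells alone and control macrophages in the 4 pairs with equal numbers. Of these, pair 3 joins different days. Control-macrophage replicate 3 and cells-alone replicate 4, with unequal numbers, correlated at 0.433. Equal numbers therefore did not clearly mark pairs, and the main fit had no replicate block. Sequences came from RefSeq, GRCm38.p6, and gene models from GENCODE vM21.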

Additional observations from a re-analysis of the deposited data

Results flagged for a closer look

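Of 30 sets of 4 or 5 libraries (10 genes in 3 groups), 5 had a library far from the others by Dixon's criterion. The cells-alone sets of Lag3 and Lilrb4a, at 0 throughout, could not be flagged. Chance alone gives about 1 in 20 for independent sets, but these sets share their libraries. Control-macrophage replicate 3, the only control library of day 2, accounts for 4 of them. It had 57.3 CPM of Pdcd1 (next highest 30.0), 168 CPM of Ctla4 (96.1), 25.2 CPM of Havcr2 (5.31) and 131 CPM of Lilrb4a (42.0). Scaled by its total alone, the same library had 42.7, 125, 18.7 and 97.5 CPM of these genes. The next highest control libraries then had 29.3, 92.3, 4.81 and 38.1 CPM. Dixon's criterion was not applied to these values. The T cell identity genes of control-macrophage replicate 3 summed to 13504 CPM, against no more than 10354 in the other control libraries. Cells-alone replicate 4 was the fifth, with 0.175 CPM of Havcr2 against 0 in the other libraries of its group. Library and day cannot be told apart for the control group.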

How the results depend on the processing

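For control macrophages against cells alone 8 members were called, and 8 whichever library was left out. For STZ macrophages against cells alone 7 were called, and 6 to 7 when libraries were left out. Between the co-cultures 0 members were called, 1 by DESeq2, 4 when only the groups compared were fitted, 1 by limma on the authors' log2 table and 0 to 1 when libraries were left out (1 without control-macrophage replicate 3). Over all genes this comparison had 51 calls, 649 by DESeq2, 2698 with only its groups fitted, 477 by limma, 19 without the day term, 7 on day 1 alone, 0 without the STZ-macrophage libraries with islet transcripts and 0 to 583 when single libraries were left out (583 without cells-alone replicate 2). Without the filter, Lag3 had an adjusted p of 0.0252 for STZ macrophages against cells alone.

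Estimates near 0 changed sign between the co-cultures. Cd200 (-0.09) became 0.012 with RLE, 0.11 with library totals, 0.10 with no filter, 0.012 by DESeq2, 0.40 without the day term, 0.10 with only the groups fitted, 0.074 on day 1, 0.034 by limma and 0.10 without the islet-transcript libraries. Ctla4 (-0.14) became 0.070 with library totals, 0.056 with no filter, 0.053 with only the groups fitted, 0.63 on day 1 and 0.23 without the islet-transcript libraries. With libraries left out they ranged from -0.15 to 0.097 and from -0.31 to 0.63. The cause was not tested. Library totals alone moved the median of all genes by 0.20 for STZ against control macrophages, -0.32 for control macrophages and -0.12 for STZ macrophages against cells alone; RLE moved the first by 0.10 and the last by 0.15. With STZ macrophages, Btla passed in limma only (1.57 against cells alone, adjusted p = 3.3e-05).

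With the replicate block, 8 members were called for control macrophages against cells alone, as without it. Equal numbers did not pair the other groups either (STZ and control macrophages r = 0.139, -0.202, 0.474 and 0.115). Between the co-cultures the block gave 0 calls over all genes and turned Cd200 to 0.66, Ctla4 to 0.18 and Cd160 to 0.066. For STZ macrophages against cells alone, 3448 of the 6807 calls remained with the block. Cd160 then had an edgeR adjusted p of 0.0560. Few counts were behind Lag3 (11 and 34 pooled in the co-cultures) and behind Havcr2 in cells alone (6 pooled).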
